A study of Mus musculus with 6 samples.

Results

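The 31 genes described here encode enzymes that build cholesterol and fatty acids, together with the proteins that switch those enzymes on when sterols run low. They were chosen by name, with earlier results of these data known, and are 31 of the 35976 genes quantified in RNA-seq libraries of cultured mouse satellite cells (SCs), the stem cells of skeletal muscle. The libraries compare 3 NF-YA cKO samples with 3 NF-YA fl/fl controls. Both genotypes carry NF-YA alleles with LoxP sites in introns on either side of the deleted exons, and both received tamoxifen (20 mg/ml) at 5 to 7 weeks of age by the sample labels, while the study's methods give a slightly older range. NF-YA cKO mice also carry Pax7-CreERT2, so that Cre is active after tamoxifen only in cells that express Pax7, whereas NF-YA fl/fl mice have no Cre. Cells carrying CD31, CD45, CD11b or Sca1 were depleted from the muscle digests, and the remaining cells were grown on Matrigel in growth medium with fibroblast growth factor before 500 ng of total RNA was used for each stranded total RNA library. The labels number the libraries 1 to 3 in each genotype but do not tie them to single mice, so the tests below measure the spread between these samples. Genes of sterol and fatty acid synthesis are of interest in this material because NF-Y, the trimer that NF-YA completes, binds CCAAT boxes, which are common in their promoters.

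Cholesterol is made from acetyl-CoA through mevalonate, isoprenoid units, squalene and lanosterol, and fatty acids are made from acetyl-CoA through malonyl-CoA. Both pathways are controlled by the sterol regulatory element binding proteins (SREBPs), membrane-bound transcription factors that Scap escorts from the endoplasmic reticulum to the Golgi for cleavage. When sterols are plentiful, Insig proteins hold Scap in the endoplasmic reticulum and the SREBPs stay inactive. Dividing cells and fusing myoblasts both need these lipids for new membrane.

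Total expected counts ran from 26936230 to 41118984 per library, so that 3 counts correspond to 0.0705 to 0.115 CPM (counts scaled to the size of the library). The entry for the deleted Nfya allele took 22.3% to 34.2% of the Nfya counts in NF-YA cKO and 0 in the controls, a difference with p = 0.1 by a two-sided exact permutation test, the lowest value that 3 against 3 allows. All Nfya entries together, the deleted one included, measured 27.0, 28.5 and 27.0 CPM in NF-YA cKO and 23.4, 25.7 and 36.9 CPM in the controls (log2 fold change -0.06 ± 0.18, FDR = 0.814), so the genotypes overlapped in the total and differed in the deleted entry. Xist measured 836 to 852 CPM in NF-YA cKO and at most 0.475 CPM in the controls, and Ddx3y at most 0.0957 CPM against 80.9 to 88.6 CPM. Sex-linked expression and genotype therefore cannot be told apart, although the study's methods describe male mice. Both genotypes expressed Pax7 (145 to 201 CPM in NF-YA cKO, 73.5 to 105 CPM in NF-YA fl/fl). All 8 differentiated muscle markers were called lower in NF-YA cKO (summed level 49.2 to 133 CPM against 9590 to 12819 CPM), all 8 macrophage markers higher (139 to 276 CPM against 5.26 to 12.1 CPM, mostly Lyz2, with Ptprc at 3.06 CPM or less) and all 4 Schwann cell markers higher (29.2 to 32.1 CPM against 6.96 to 10.2 CPM). Of the other lists, 2 of 7 satellite cell and myoblast markers (Cdh15 and Des) were called lower. At an FDR under 0.05 with no limit on size, 2 of these 7 were higher (Pax7 and Vcam1) and 3 lower (Cdh15, Des and Itga7). Further, 1 of 5 pericyte and smooth muscle markers (Acta2) was called lower and 1 of 4 endothelial markers (Kdr) higher. Of the fibro-adipogenic progenitor markers, 0 of 6 were called. At an FDR under 0.05 Dcn alone of these 6 passed, and it was higher (log2 fold change 1.71, FDR = 0.0145). By that rule Rgs5 of the pericyte list was also lower (-3.37, FDR = 0.0249) and Tek of the endothelial list higher (1.26, FDR = 0.0213). Of 6 adipocyte markers, Adipoq, Plin1, Cidec and Lep were at or near 0 in every library. The part of these other cells in the results below was not tested.

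None of the 31 genes had a fitted change beyond 2-fold between genotypes with all libraries in the fit, the largest in size being the log2 fold change of -0.79 for Insig2. Every one of them passed the filter on low counts (a count above 10 in 2 libraries or more), so all 31 were among the 17348 genes tested. With a false discovery rate (FDR, Benjamini-Hochberg over all genes tested, from the quasi-likelihood test of edgeR) under 0.01 and a change of more than 1 on the log2 scale, as the study's methods set it, 0 of 31 were called higher and 0 lower, where 4.65% of all genes were called higher and 7.67% lower. DESeq2 and limma also called none, and at an unadjusted p under 0.05 edgeR found 6 higher and 7 lower. At an FDR under 0.05 with no limit on size, Scap and Lss were higher and Srebf2, Insig2, Mvd, Fdft1, Hsd17b7 and Scd2 lower in NF-YA cKO, which is 2 and 6 of 31, while the background was 19.7% of all genes higher and 18.9% lower. Together these 8 genes are 25.8% of the 31, against 38.6% of all genes tested. Over the 31 genes the log2 fold changes had a median of -0.08, beside -0.02 over all genes, and the median size of the change was 0.39 and 0.48. All NF-YA cKO libraries lay above all controls in 6 genes and below all of them in 10, beside 29.1% and 26.2% of all genes. In bulk RNA, fewer cells that express a gene and less RNA per cell cannot be told apart.

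**Figure D1:**
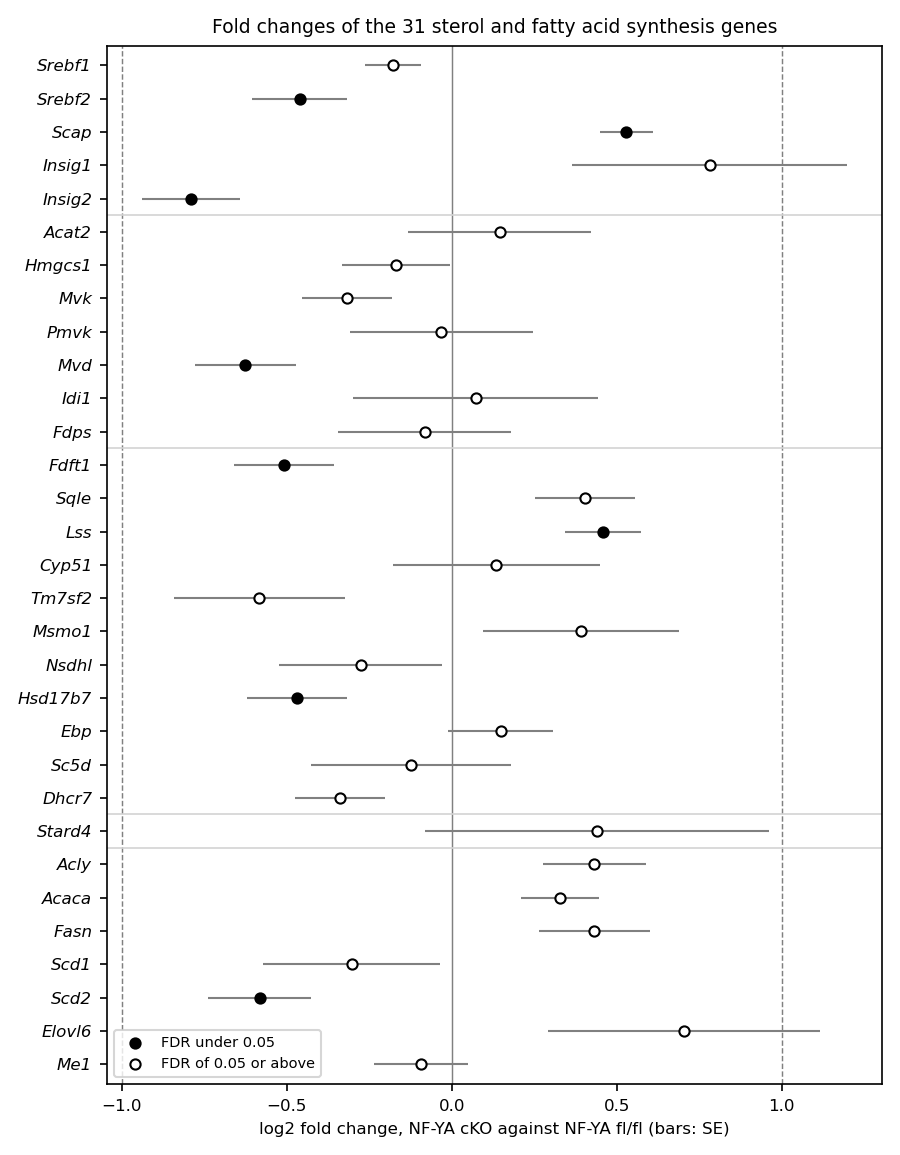
Log2 fold change (NF-YA cKO against NF-YA fl/fl) of each of the 31 genes with its standard error, grouped from top to bottom as SREBP machinery, mevalonate enzymes, squalene and sterol enzymes, sterol transport and fatty acid synthesis. Filled points have an FDR under 0.05, and every point lies between the dashed lines at -1 and 1.

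CCAAT boxes were found in promoters of most of these genes. RefSeq promoters (GRCm38.p6, 250 bases before to 50 after each transcription start) were given for 25 of the 31 genes, 34 promoters in all, and not for Fdps, Fdft1, Sqle, Stard4, Scd1 and Scd2. CCAAT, read on either strand, was in a promoter of 21 of the 25 genes (84%), and in 41.1% of all 27025 genes with a promoter of this length or 42.3% of the 12466 that were tested. The GC box letters GGGCGG were also in 21 of the 25 (84%, beside 38.2% of all genes and 61.9% of tested genes). The core letters of a sterol regulatory element, TCACNCCAC on either strand, were found only in the Hmgcs1 promoter (4% of the 25 genes, beside 1.44% of all genes). The 44 CCAAT matches were on the gene's own strand in 14 cases and on the other in 30, 40 of them lay before the start, and 11 genes had several in a single promoter. In Fasn, Srebf1, Me1 and Dhcr7 the CCAAT matches lay only in promoters inside the annotated gene. A match describes letters in this window and is no evidence of binding.

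The promoters of 5 genes are printed below, 5′ to 3′ on the gene's strand, with CCAAT boxes (ATTGG where the match is on the other strand) and the sterol element core in capitals. Hmgcs1 is shown because it held both motifs, Srebf2, Insig2 and Mvd because they were lower in NF-YA cKO and held CCAAT in the promoter shown, and Scap because it was higher and held none. Lss, the other gene higher at an FDR under 0.05, held CCAAT at -62 bases from its start and is not shown. The 5 promoters printed were picked after the values of their genes were seen. They lie at chr13:119690101-119690400 on the plus strand (Hmgcs1), chr15:82147019-82147318 on the plus strand (Srebf2), chr1:121332540-121332839 on the minus strand (Insig2, the most upstream of 3 starts, the other two of which held no CCAAT), chr8:122443373-122443672 on the minus strand (Mvd) and chr9:110333038-110333337 on the plus strand (Scap, the upstream of its starts) of GRCm38.
Hmgcs1: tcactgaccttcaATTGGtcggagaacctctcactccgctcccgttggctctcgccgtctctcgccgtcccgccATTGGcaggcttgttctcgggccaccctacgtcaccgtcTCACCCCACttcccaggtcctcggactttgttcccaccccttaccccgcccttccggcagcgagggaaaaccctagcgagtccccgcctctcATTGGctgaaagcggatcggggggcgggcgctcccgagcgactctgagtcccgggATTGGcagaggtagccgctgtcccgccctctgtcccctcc
Srebf2: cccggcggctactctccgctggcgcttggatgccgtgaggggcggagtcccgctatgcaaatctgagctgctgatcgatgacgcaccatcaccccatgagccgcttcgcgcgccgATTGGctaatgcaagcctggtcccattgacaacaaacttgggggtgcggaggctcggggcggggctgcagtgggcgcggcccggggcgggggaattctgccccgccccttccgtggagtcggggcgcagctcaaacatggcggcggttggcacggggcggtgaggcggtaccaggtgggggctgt
Insig2: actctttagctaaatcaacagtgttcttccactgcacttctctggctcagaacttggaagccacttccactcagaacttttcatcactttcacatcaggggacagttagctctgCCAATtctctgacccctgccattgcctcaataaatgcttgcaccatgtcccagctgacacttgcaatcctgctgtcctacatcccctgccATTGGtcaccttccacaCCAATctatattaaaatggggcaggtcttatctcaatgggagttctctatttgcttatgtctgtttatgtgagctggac
Mvd: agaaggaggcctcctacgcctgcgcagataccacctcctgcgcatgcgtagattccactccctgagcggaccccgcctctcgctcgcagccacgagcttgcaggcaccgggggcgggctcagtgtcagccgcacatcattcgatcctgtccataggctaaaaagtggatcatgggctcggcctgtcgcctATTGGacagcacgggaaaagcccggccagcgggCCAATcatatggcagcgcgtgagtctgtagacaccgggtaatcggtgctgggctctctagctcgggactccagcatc
Scap: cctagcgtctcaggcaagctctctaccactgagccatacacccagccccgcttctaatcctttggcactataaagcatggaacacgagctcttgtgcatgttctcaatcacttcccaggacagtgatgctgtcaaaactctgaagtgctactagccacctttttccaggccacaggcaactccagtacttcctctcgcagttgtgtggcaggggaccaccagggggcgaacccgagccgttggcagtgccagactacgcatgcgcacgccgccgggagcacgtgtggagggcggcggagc

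Genes with a CCAAT promoter were found on both sides of 0. Of the 21 genes with a CCAAT promoter, 1 was higher and 4 lower at an FDR under 0.05, with a median log2 fold change of -0.12 and a range from -0.79 to 0.78. The 4 genes with none (Acaca, Acat2, Elovl6 and Scap) all had log2 fold changes above 0, and 1 of them (Scap) passed. That of Acat2 was -0.12 without control replicate 3. The only promoter given for Acaca (chr11:84195188-84195487) lies inside the gene (chr11:84129635-84401651). The same holds for Fasn, which has CCAAT (chr11:120824498-120824797 in chr11:120805958-120825166), and for every promoter given for Srebf1. Me1 and Dhcr7 held CCAAT only in a promoter inside the gene (chr9:86687228-86687527 and chr7:143829964-143830263), and none at their most upstream start. Over all tested genes with a promoter, 20.8% of those with CCAAT were higher and 18.1% lower, and 20.2% and 18.2% of those without it.

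**Figure D2:**
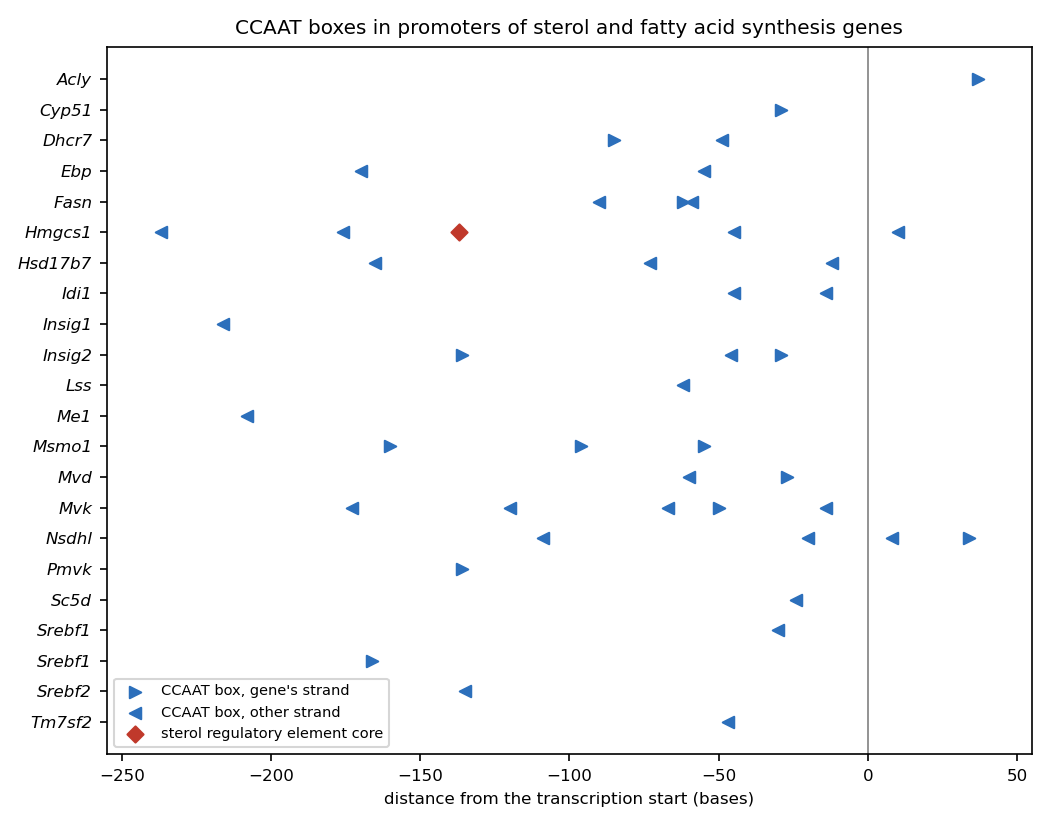
Position of each CCAAT match in bases from the transcription start, with 1 row per promoter that holds a match (Srebf1 has several such promoters). Triangles point right for the gene's strand and left for the other, and the diamond in Hmgcs1 marks the sterol element core, 137 bases before the start.

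Of the 5 genes of the SREBP machinery, 1 was higher and 2 lower at an FDR under 0.05, beside 19.7% and 18.9% of all genes. Scap, the escort of the SREBPs (chr9:110333288-110384949), was higher in NF-YA cKO, while the SREBP gene Srebf2 (chr15:82147269-82205379) and the retention factor Insig2 (chr1:121304353-121332662) were lower. Scap measured 98.3, 96.4 and 93.9 CPM in NF-YA cKO replicates 1, 2 and 3 and 64.3, 69.4 and 66.3 CPM in the NF-YA fl/fl replicates. No library of one genotype reached the other, and the log2 fold change was 0.53 ± 0.08 (SE) with an FDR of 0.00315. Insig2 had 15.1, 16.7 and 17.9 CPM in NF-YA cKO and 32.1, 23.6 and 30.2 CPM in the controls. Its fall of the log2 level by 0.79 ± 0.15 (FDR = 0.0068) was the largest of the 31, 1.73-fold, with no overlap. Srebf2, the main activator of cholesterol synthesis, measured 88.8, 86.3 and 91.6 CPM against 102, 116 and 149 CPM, a log2 fold change of -0.46 ± 0.14 (FDR = 0.0426). The genotypes did not overlap, but the highest control was 1.46-fold above the lowest. Without NF-YA cKO replicate 1, 2 or 3 or NF-YA fl/fl replicate 2 the FDR of Srebf2 was 0.0974, 0.108, 0.0843 or 0.0544, and without NF-YA fl/fl replicate 3 its log2 fold change was -0.30 (FDR = 0.0209). Scap and Insig2 stayed under 0.05 whichever library was left out.

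Srebf1, whose product acts mainly on fatty acid genes, had 62.7, 61.1 and 64.5 CPM in NF-YA cKO and 67.4, 74.6 and 71.1 CPM in the controls. The genotypes did not overlap, but the log2 fold change was only -0.18 ± 0.08 (FDR = 0.135). Srebf1 shares exonic sequence with Rai1 on the opposite strand. Insig1, the other retention factor and itself an SREBP target, measured 41.0, 49.0 and 51.0 CPM in NF-YA cKO and 25.7, 44.3 and 12.0 CPM in the controls. Its log2 fold change of 0.78 ± 0.42 (FDR = 0.179) was as large as that of Insig2 but the NF-YA fl/fl libraries alone differed 3.70-fold. Without control replicate 2, the highest of them, the log2 fold change of Insig1 was 1.31 (FDR = 0.0252), and without control replicate 3, the lowest, it was 0.42 (FDR = 0.162).

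Of the 7 enzymes from acetyl-CoA to farnesyl diphosphate, 0 were higher and 1 (Mvd) lower at an FDR under 0.05. Of all genes, 19.7% were higher and 18.9% lower. Mvd (chr8:122433596-122443422), which decarboxylates diphosphomevalonate to isopentenyl diphosphate, had 6.50, 6.83 and 7.99 CPM in NF-YA cKO and 11.2, 11.8 and 9.91 CPM in the controls. The groups did not overlap and the log2 fold change was -0.63 ± 0.15 (FDR = 0.0183). The FDR was 0.0761, 0.0744 and 0.0501 without NF-YA cKO replicate 1, NF-YA cKO replicate 2 and NF-YA fl/fl replicate 1. Mvk, the mevalonate kinase, also showed no overlap, with 10.6, 9.46 and 9.85 CPM against 12.7, 13.5 and 11.1 CPM (log2 fold change -0.32 ± 0.14, FDR = 0.107). Its log2 fold change was -0.40 without control replicate 3 (FDR = 0.0285) and -0.26 without control replicate 2 (FDR = 0.162).

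In the other 5 mevalonate enzymes all NF-YA cKO libraries lay inside the range of the NF-YA fl/fl libraries, as in 21.4% of all genes. No log2 fold change of these 5 exceeded 0.17 in size. Acat2, the cytosolic thiolase that starts the pathway, had 15.6, 16.3 and 15.9 CPM in NF-YA cKO and 14.2, 20.2 and 8.85 CPM in the controls (log2 fold change 0.15, FDR = 0.704). Hmgcs1, which makes HMG-CoA, had 51.1, 50.4 and 56.4 CPM against 56.1, 73.5 and 47.7 CPM (-0.17, FDR = 0.445). Pmvk, the phosphomevalonate kinase, had 7.02, 6.78 and 8.39 CPM against 8.26, 9.72 and 4.68 CPM (-0.03, FDR = 0.94). These genes gave 3 close values in NF-YA cKO and 3 wide ones in NF-YA fl/fl. Idi1, which isomerizes isopentenyl diphosphate, had 14.1, 11.1 and 13.7 CPM in NF-YA cKO and 11.6, 19.1 and 6.28 CPM in the controls (0.07, FDR = 0.892). Fdps, the farnesyl diphosphate synthase, had 37.3, 38.1 and 41.8 CPM against 44.3, 54.6 and 25.0 CPM (-0.08, FDR = 0.825). The same NF-YA fl/fl libraries were at the ends in each of the 5, replicate 2 highest and replicate 3 lowest. Without replicate 3 the log2 fold change of Fdps was -0.35 (FDR = 0.0377) and without replicate 2 it was 0.16 (FDR = 0.615).

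Of the 11 enzymes that make and close squalene and shape the sterol ring, 1 was higher and 2 lower at an FDR under 0.05, against the same 19.7% and 18.9% of all genes. Lss, the lanosterol synthase (chr10:76531565-76557139), was higher, and Fdft1, the squalene synthase (chr14:63145150-63181687), and Hsd17b7, the sterol ketoreductase of C4 demethylation (chr1:169949535-169969242), were lower. Lss measured 23.6, 26.2 and 26.1 CPM in NF-YA cKO and 18.1, 20.2 and 16.9 CPM in the controls, with no overlap (log2 fold change 0.46 ± 0.12, FDR = 0.0199). Fdft1 had 26.7, 27.9 and 27.1 CPM against 38.5, 46.4 and 31.3 CPM (-0.51 ± 0.15, FDR = 0.0357). Hsd17b7 had 17.4, 17.4 and 17.8 CPM against 23.1, 29.3 and 20.4 CPM (-0.47 ± 0.15, FDR = 0.0473). In both of the lower genes the NF-YA cKO libraries agreed closely and all lay below the lowest NF-YA fl/fl library. Each of these 3 calls was lost when certain libraries were left out. The FDR of Lss was 0.0653, 0.118 and 0.108 without NF-YA cKO replicates 1, 2 and 3 and 0.0591 without control replicate 1. For Fdft1 the same omissions gave 0.106, 0.0936, 0.1 and 0.0819. For Hsd17b7 they gave 0.124, 0.127, 0.115 and 0.0817, and without control replicate 2 it was 0.0555. Exons of Fdft1 overlap Ctsb and those of Lss overlap 4930483K19Rik, each on the opposite strand. Among the 31 genes such overlaps were also annotated for Srebf1, Scap, Hmgcs1, Idi1, Cyp51 and Me1 on the opposite strand and for Fdps, Tm7sf2 and Scd2 on the same strand.

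Another 3 genes of this segment separated the genotypes without passing. Over all genes, 29.1% had every NF-YA cKO library above every control and 26.2% below. Sqle, the squalene epoxidase, had 43.5, 45.3 and 43.6 CPM in NF-YA cKO and 29.7, 41.3 and 29.0 CPM in the controls (log2 fold change 0.40 ± 0.15, FDR = 0.0736). Without control replicate 2 its log2 fold change was 0.58 (FDR = 0.00362), and without control replicate 3 it was 0.31 (FDR = 0.109). Dhcr7, which makes cholesterol from its last precursor, had 6.47, 6.54 and 6.70 CPM against 8.07, 8.77 and 8.07 CPM (-0.34 ± 0.14, FDR = 0.0907). Tm7sf2, a sterol C14 reductase, was the lowest of the 31 genes, with 1.59, 1.69 and 1.08 CPM against 2.52, 2.08 and 1.93 CPM (-0.58 ± 0.26, FDR = 0.117). Its exons overlap those of Vps51 on the same strand, so its count is an estimate of a split.

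For the remaining sterol enzymes the genotypes overlapped. Cyp51, the lanosterol demethylase, had 47.9, 45.8 and 50.8 CPM in NF-YA cKO and 46.0, 62.0 and 23.5 CPM in the controls (log2 fold change 0.13, FDR = 0.758). Msmo1, the C4 methyl oxidase, had 33.2, 30.8 and 32.3 CPM against 26.2, 33.6 and 13.6 CPM (0.39, FDR = 0.332), and its log2 fold change was 0.68 without control replicate 2 (FDR = 0.0966) and 0.095 without control replicate 3 (FDR = 0.537). Sc5d, the sterol C5 desaturase, had 22.0, 16.8 and 20.3 CPM against 26.2, 26.3 and 11.8 CPM (-0.12, FDR = 0.773), with -0.42 without control replicate 3 (FDR = 0.0331) and 0.043 without control replicate 2 (FDR = 0.928). In each of them NF-YA fl/fl replicate 3 was the lowest library of all 6. Nsdhl, the C4 decarboxylase, and Ebp, the sterol isomerase, are on the X chromosome, where sex and genotype cannot be told apart. Nsdhl had 8.13, 9.27 and 8.98 CPM against 9.82, 14.6 and 7.53 CPM (-0.28, FDR = 0.409). Ebp had 16.9, 18.1 and 16.7 CPM against 18.0, 16.2 and 12.4 CPM (0.15, FDR = 0.494). Without both, the counts at an FDR under 0.05 were still 2 higher and 6 lower, of 29. Stard4, a carrier that moves cholesterol between membranes, had 13.1, 10.8 and 12.2 CPM in NF-YA cKO and 7.87, 15.7 and 2.92 CPM in the controls, the widest span of the 31, 5.39-fold within one genotype (0.44 ± 0.52, FDR = 0.533). Its log2 fold change was 1.15 without control replicate 2 (FDR = 0.0723) and 0.0145 without control replicate 3 (FDR = 0.97).

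Of the 7 fatty acid synthesis genes 0 were higher and 1 (Scd2) lower at an FDR under 0.05, beside 19.7% and 18.9% of all genes. The genes on the way to palmitate had log2 fold changes above 0 and both desaturases below 0. Scd2 (chr19:44293676-44306864), a stearoyl-CoA desaturase, measured 248, 216 and 249 CPM in NF-YA cKO and 361, 422 and 285 CPM in the controls. The genotypes did not overlap and the log2 fold change was -0.58 ± 0.16 (FDR = 0.0253). Its FDR was 0.0664, 0.0944, 0.0641 and 0.0692 without NF-YA cKO replicates 1, 2 and 3 and NF-YA fl/fl replicate 1. Scd1, its neighbouring paralog on the same chromosome, had 76.7, 63.1 and 78.4 CPM against 104, 112 and 53.5 CPM (-0.30 ± 0.27, FDR = 0.402). Both desaturases were below control replicates 1 and 2 in all NF-YA cKO libraries, and Scd1 had a log2 fold change of -0.57 (FDR = 0.00535) without control replicate 3 and of -0.12 (FDR = 0.753) without control replicate 2. Reads that match both paralogs were split between them by the authors' software.

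Every control lay below all NF-YA cKO libraries in the 3 genes that carry carbon from citrate to palmitate. Separation in this direction was found in 29.1% of all genes and in no other of the 7 fatty acid genes. None of the 3 passed an FDR of 0.05. Acly, which releases cytosolic acetyl-CoA from citrate, had 211, 211 and 229 CPM in NF-YA cKO and 159, 195 and 128 CPM in the controls (log2 fold change 0.43 ± 0.16, FDR = 0.0654). Acaca, which makes malonyl-CoA, had 187, 178 and 182 CPM against 143, 166 and 126 CPM (0.33 ± 0.12, FDR = 0.0649). Fasn, the fatty acid synthase, had 424, 415 and 414 CPM against 272, 395 and 261 CPM (0.43 ± 0.17, FDR = 0.0821). NF-YA fl/fl replicate 2 came nearest to the NF-YA cKO libraries in all 3. Without it the log2 fold changes were 0.59 for Acly (FDR = 0.0132), 0.43 for Acaca (FDR = 0.0142) and 0.64 for Fasn (FDR = 0.00283). Without control replicate 3, the lowest, they were 0.29 (FDR = 0.0544), 0.23 (FDR = 0.0625) and 0.32 (FDR = 0.121). Elovl6, which elongates palmitate, had 44.6, 38.2 and 37.8 CPM against 24.3, 39.1 and 10.6 CPM (0.70 ± 0.41, FDR = 0.215), with 1.20 without control replicate 2 (FDR = 0.0392) and 0.33 without control replicate 3 (FDR = 0.199). Me1, the malic enzyme that supplies NADPH, had 63.9, 60.0 and 66.5 CPM against 60.4, 82.6 and 60.2 CPM (-0.09 ± 0.14, FDR = 0.632).

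**Figure D3:**
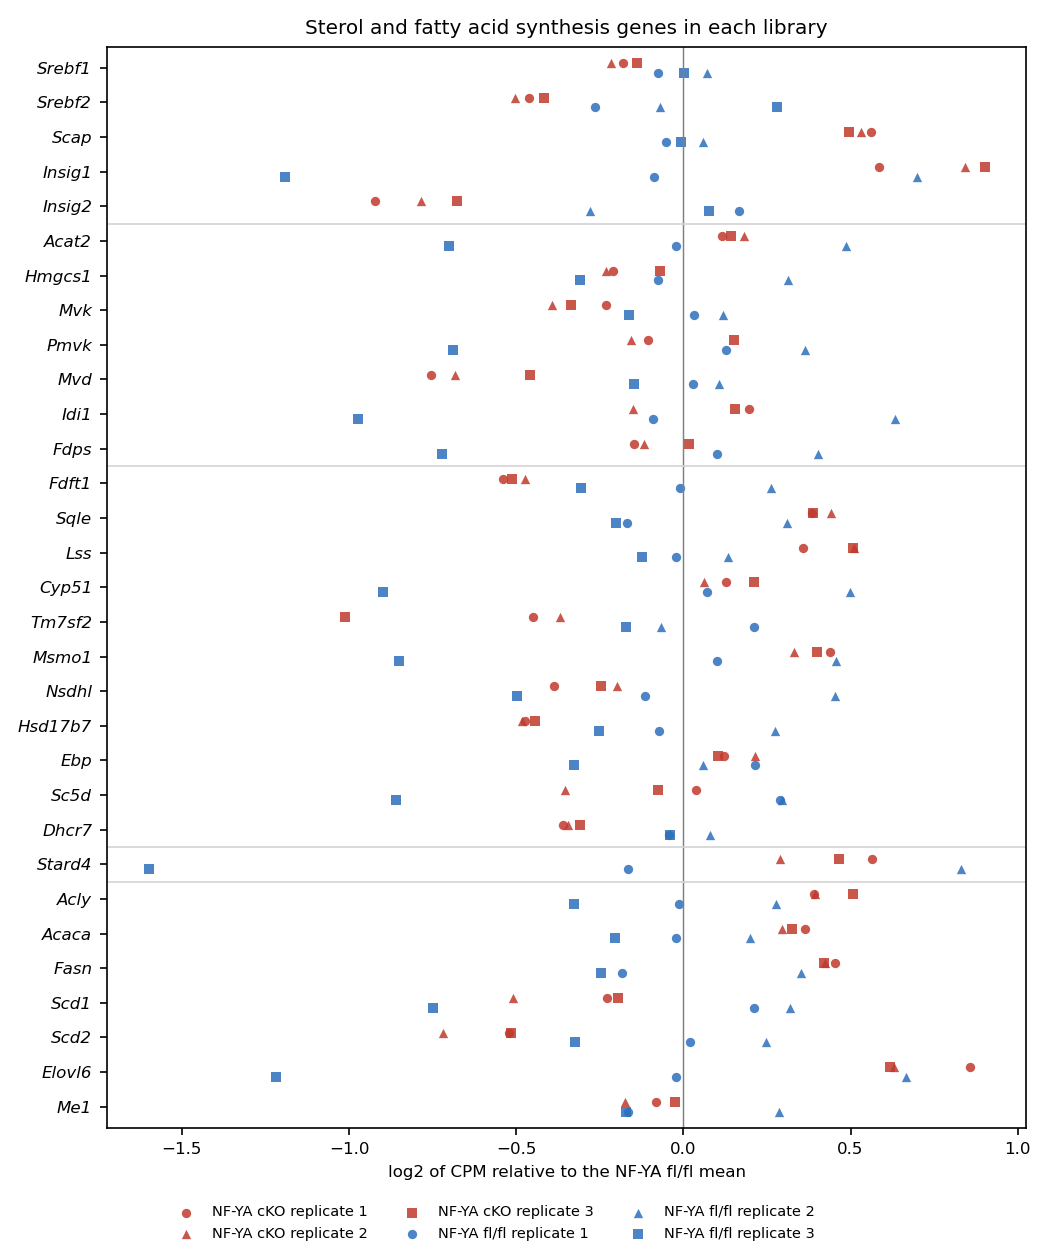
Log2 of the CPM of each gene in each library relative to the mean of the NF-YA fl/fl libraries, with NF-YA cKO in red, NF-YA fl/fl in blue and the replicate shown by the marker. The red points sit close together, while the blue squares (NF-YA fl/fl replicate 3) are the lowest NF-YA fl/fl library in 26 of 31 genes and the blue triangles (replicate 2) the highest in 27.

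The NF-YA fl/fl libraries differed from each other in the same order in most of these genes. NF-YA fl/fl replicate 3 was the lowest of its genotype in 26 of the 31 genes and replicate 2 the highest in 27, where over all tested genes this held for 38.0% and 35.7%. The median log2 ratio of replicate 2 to replicate 3 was 0.57 over the 31 genes, 1.05 over the 7 mevalonate enzymes and -0.02 over all genes. It was 2.43 for Stard4, 1.89 for Insig1, 1.88 for Elovl6, 1.61 for Idi1 and 1.40 for Cyp51. Replicate 3 was not the lowest in 5 genes, of which 4 were of the SREBP machinery (Srebf1, Srebf2, Scap and Insig2) and the other was Dhcr7. Srebf2 was highest in replicate 3 (log2 ratio -0.35) and Insig2 lowest in replicate 2 (-0.35). All NF-YA cKO libraries lay inside the NF-YA fl/fl range in 11 of 31 genes (21.4% of all genes). The median coefficient of variation was 5.75% in NF-YA cKO and 20.8% in NF-YA fl/fl, much as over all genes (7.97% and 20.7%).

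Summed over the 7 mevalonate enzymes, the level was 142, 139 and 154 CPM in NF-YA cKO and 158, 202 and 114 CPM in the controls. The 11 squalene and sterol enzymes summed to 247, 246 and 252 CPM against 246, 301 and 176 CPM. The 7 fatty acid genes summed to 1255, 1182 and 1256 CPM against 1124, 1412 and 924 CPM. In all 3 groups the NF-YA cKO libraries fell between NF-YA fl/fl replicates 2 and 3. The SREBP machinery did not show this, with 306, 309 and 319 CPM against 291, 328 and 328 CPM.

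Other genes varied along with this. The 6 fibro-adipogenic progenitor markers summed to 199, 263 and 38.1 CPM in control replicates 1, 2 and 3 and to 174 to 207 CPM in NF-YA cKO. Replicate 3 was the lowest NF-YA fl/fl library in 6 of the 6. Their most abundant gene Pdgfra had 132, 147 and 21.6 CPM there, and the rest included Cd34 at 17.7, 58.8 and 3.53 CPM. Control replicate 3 was also lowest in 4 of 5 pericyte and smooth muscle, 5 of 8 macrophage and 3 of 4 endothelial markers. It was lowest in 0 of 4 Schwann cell and 0 of 7 satellite cell and myoblast markers, beside 38.0% of all genes. The 6 proliferation markers summed to 737, 1147 and 602 CPM in the controls and 1675 to 1774 CPM in NF-YA cKO, and 5 of them were called higher in NF-YA cKO. Conversely Myod1 (361, 295 and 1146 CPM) and Myog (965, 584 and 1450 CPM) were highest in NF-YA fl/fl replicate 3. Most differentiated muscle markers did not share this. Of the 8, Myog and Actc1 were highest in replicate 3, while in 5 replicate 3 was the lowest control. The part of cell composition or growth in the lipid gene values was not tested.

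**Figure D4:**
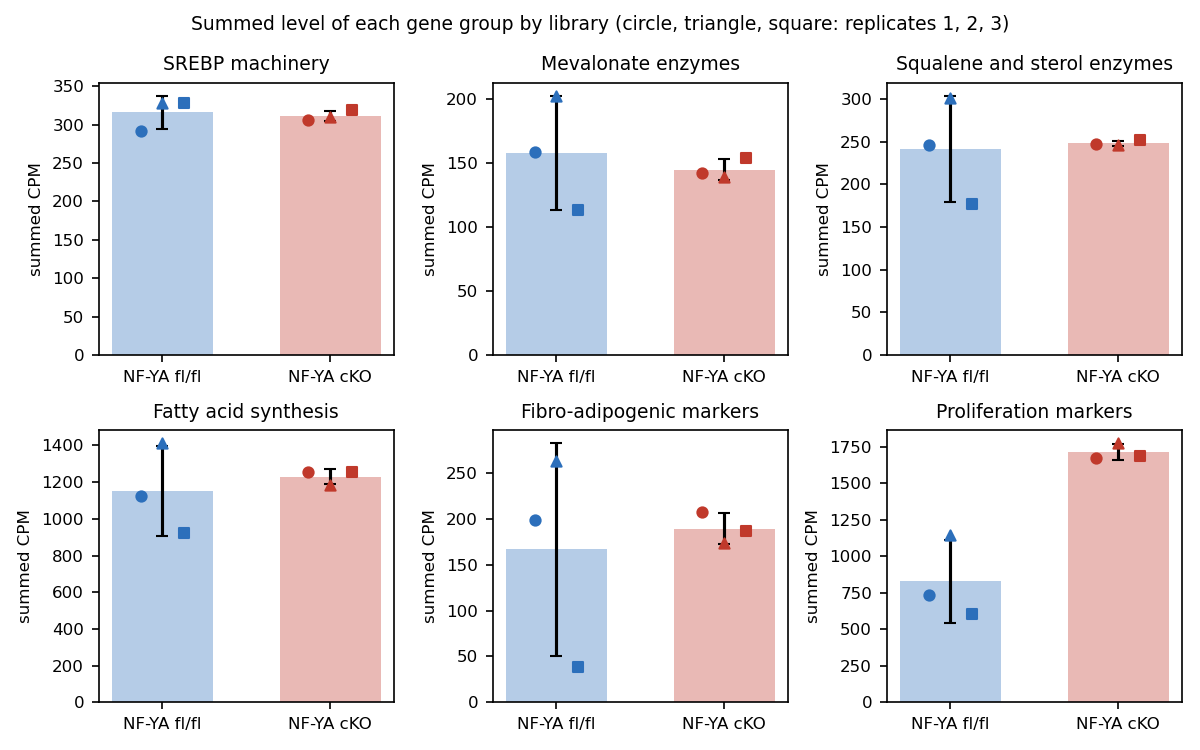
Summed CPM of 4 groups of lipid genes and 2 lists of marker genes in each library, with bars at the mean and error bars of 1 SD over 3 libraries per genotype. NF-YA fl/fl replicate 2 (triangle) is the highest and replicate 3 (square) the lowest of its genotype for mevalonate, sterol, fatty acid, fibro-adipogenic and proliferation genes.

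Leaving out these libraries moved the counts in opposite directions. Without control replicate 2, 8 of the 31 genes were higher at an FDR under 0.05 and 4 lower, the 6 additional higher genes being Insig1, Sqle, Acly, Acaca, Fasn and Elovl6. Without control replicate 3, 2 were higher and 10 lower, the additional lower ones being Mvk, Fdps, Sc5d and Scd1. Neither omission gave a call among the 31 at the study's thresholds. Srebf2, Fdft1 and Hsd17b7 also missed an FDR of 0.05 with library totals in place of TMM (0.0581, 0.0619 and 0.0832) and with no filter on low counts (0.0538, 0.0524 and 0.0787), and limma on log2(TPM + 1) kept only Insig2 (0.0133).

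Between genes, levels were compared in TPM, the deposited transcript level scaled to length. In NF-YA fl/fl, Scd2 was the most abundant of the 31 at 78.5 ± 29.5 TPM (SD, n = 3), then Fdps at 45.5 ± 23.8, Acly at 44.3 ± 17.4 and Fasn at 37.0 ± 16.0 TPM. Neighbours in this order overlapped within 1 SD. In NF-YA cKO the order was Acly (54.5 ± 5.76 TPM), Scd2 (48.1 ± 7.51), Fasn (45.5 ± 4.16) and Fdps (38.6 ± 4.14), so the same 4 genes led, and neighbours again overlapped within 1 SD. Srebf2 ranked 5 of 31 in NF-YA fl/fl (29.8 ± 4.81 TPM) and 9 in NF-YA cKO (20.7 ± 2.18 TPM), while Scap ranked 10 (19.0 ± 4.17 TPM) and 5 (25.6 ± 2.32 TPM). Stard4 and Tm7sf2 were near the foot in both, at 2.69 ± 2.33 and 1.90 ± 0.46 TPM in NF-YA fl/fl.

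Transcript use was examined in the 15 genes with several transcripts at a mean of 10% or more of the gene's TPM. In 6 of them (Acaca, Fdft1, Hmgcs1, Hsd17b7, Me1 and Srebf1) a transcript's share did not overlap between genotypes, where 41.8% of all 6693 genes of this kind had such a share. In an exact permutation test (two-sided) each of these gave p = 0.1, below which 3 libraries against 3 cannot go. In Me1 the transcript NM_008615.2 held 44.3%, 42.8% and 42.9% in NF-YA cKO and 27.5%, 33.5% and 30.2% in NF-YA fl/fl, with XM_011242666.2 making up nearly all the rest. In Hmgcs1, NM_001291439.1 held 54.0%, 61.8% and 61.5% against 45.3%, 52.8% and 46.9%. In Acaca, XM_011248666.1 held 56.0%, 58.0% and 53.6% against 46.6%, 42.3% and 40.8%. The mean shares of these 3 were 12.9, 10.8 and 12.6 percentage points higher in NF-YA cKO. In Srebf1, XM_006532715.2 held 6.44%, 3.03% and 5.31% against 17.8%, 16.5% and 7.57%, and in Hsd17b7, XM_006496667.2 held 6.81%, 0% and 5.67% against 13.3%, 10.8% and 23.6%. Fdft1 was read mainly as NM_010191.3 in both genotypes, at 90.8%, 92.4% and 92.3% against 90.2%, 80.2% and 88.5%.

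Changes beyond 2-fold were found around the synthesis genes, in a list of 44 other genes of sterol and fatty acid metabolism, of which 41 were tested and Scd3, Mlxipl and Thrsp were too low. Of these, 3 were called higher and 5 lower in NF-YA cKO, beside the 4.65% and 7.67% of all genes, and 9 were higher and 9 lower at an FDR under 0.05, where 19.7% and 18.9% of all genes were. The 5 genes that process SREBPs or take part in degrading sterol-regulated proteins (the site proteases Mbtps1 and Mbtps2, Rnf139, Erlin1 and Erlin2) gave none at either threshold, with log2 fold changes from -0.30 to 0.17.

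Among genes that handle finished sterol, Soat1, which esterifies cholesterol for storage, was called higher. It measured 388, 365 and 325 CPM in NF-YA cKO and 180, 224 and 132 CPM in the controls, with no overlap (log2 fold change 1.01 ± 0.19, FDR = 0.0074). Mylip, a ubiquitin ligase that removes lipoprotein receptors, was called lower, with 3.48, 3.28 and 4.14 CPM against 8.14, 7.85 and 7.33 CPM (-1.10 ± 0.17, FDR = 0.00321). Soat1 sat at the edge of both thresholds: its FDR was 0.0256 to 0.0401 without any 1 of the NF-YA cKO libraries or control replicate 1, and its log2 fold change was 0.83 without control replicate 3.

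Acsl1, Acsl3, Acss2 and Acacb were called lower, and the elongases Elovl3 and Elovl7 higher. Acsl1, a long-chain acyl-CoA synthetase, had 20.2, 21.0 and 19.9 CPM in NF-YA cKO and 74.7, 55.5 and 75.1 CPM in the controls (log2 fold change -1.75 ± 0.14, FDR = 0.000356), and it was called under each of the 15 alternatives that give it a value. Acsl3, a related synthetase, had 37.2, 42.0 and 40.4 CPM against 107, 93.6 and 69.9 CPM (-1.18 ± 0.16, FDR = 0.0023). Acss2, which makes acetyl-CoA from acetate, had 3.48, 3.40 and 5.19 CPM against 11.0, 9.58 and 7.29 CPM (-1.20 ± 0.25, FDR = 0.00943). Acacb, the mitochondrial counterpart of Acaca that is prominent in muscle, had 2.01, 1.67 and 1.67 CPM against 5.54, 5.14 and 4.44 CPM (-1.50 ± 0.20, FDR = 0.00187). All 4 were below every NF-YA fl/fl library in every NF-YA cKO library, as 26.2% of all genes were. Elovl3, an elongase of saturated chains, had 5.42, 5.55 and 5.19 CPM against 0.956, 1.22 and 2.27 CPM (1.86 ± 0.33, FDR = 0.00552), and Elovl7 had 1.28, 1.52 and 1.67 CPM against 0.573, 0.565 and 0.645 CPM (1.32 ± 0.25, FDR = 0.00658). With a library left out, Elovl3, Elovl7, Acss2 and Mylip stayed under an FDR of 0.05 and lost the FDR of 0.01 for most of the omissions, up to 0.0285, 0.0373, 0.0458 and 0.0224. Acsl3 and Acacb lost it, up to 0.0151 and 0.0157, only without an NF-YA cKO library.

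**Figure D5:**
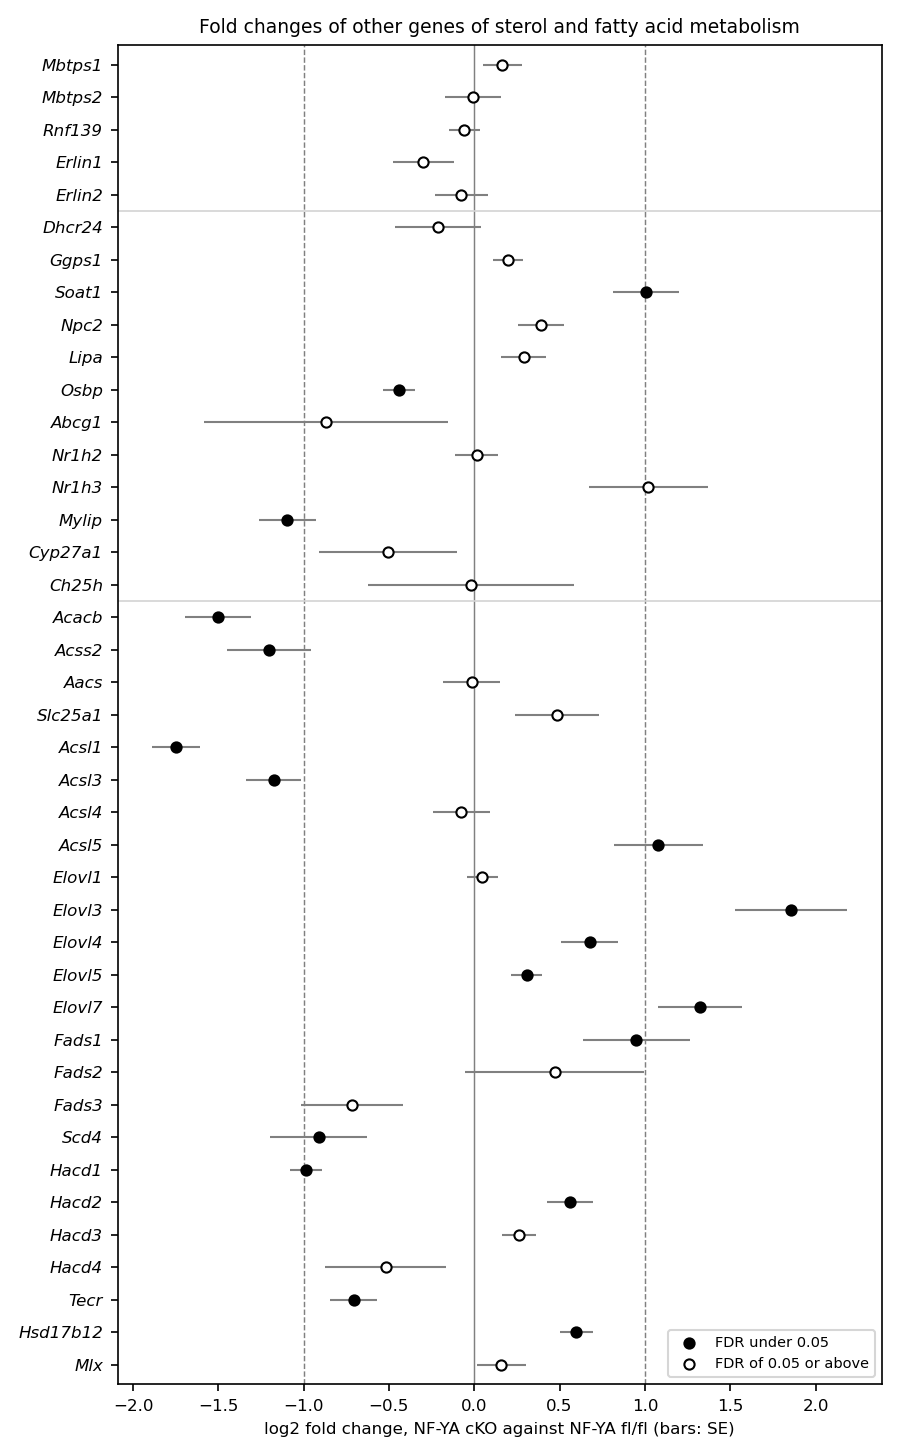
Log2 fold change (NF-YA cKO against NF-YA fl/fl) with its standard error for the 41 tested genes of sterol and fatty acid metabolism outside the 31, grouped from top to bottom as SREBP processing, sterol handling and fatty acid metabolism. Filled points have an FDR under 0.05, and Acsl1 at -1.75 and Elovl3 at 1.86 lie at the ends.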

How the data were processed

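Genotype and replicate number were read from the sample labels. Per the submitters' processing notes, the authors used Bowtie2, RSEM and mm10, and by the study's methods the reads were aligned to the transcriptome. The expected counts deposited by the authors are RSEM estimates, neither normalized nor filtered, in which a read matching several transcripts is shared out, so values of paralogs and overlapping genes are estimates. The deposited TPM values were scaled by the authors' software to effective length, and the percent of the gene's TPM that each transcript holds was deposited beside them. Whether counting used strand was not given in the sources used here.

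The 31 genes, the other pathway list, the marker lists and the tests were chosen with earlier results of these data known. After rounding to whole numbers, a gene was kept if its count exceeded 10 in 2 libraries or more, and edgeR 4.0.16 (R 4.3.3, TMM) with genotype alone in its quasi-likelihood model was fitted to all 17348 genes, with Benjamini-Hochberg adjustment. The script was tested on simulated data. CPM uses TMM library sizes. A standard error is the size of the log2 fold change divided by the square root of F. All 31 genes are named. Other pathway genes were named with values where called at an FDR under 0.01 and a change above 1 on the log2 scale, and the genes of one list that gave no call are named as its members. Markers were named to describe their lists. A gene of the other pathway list is not reported here and was left out of its counts. Gene coordinates and promoters are from RefSeq (GRCm38.p6), and motifs were searched as letters on both strands. Floors of 3 counts cover counting error only. Each fit was repeated with DESeq2 1.42.0, with its median-of-ratios scaling inside edgeR, library totals, filterByExpr, no filter, unrounded counts, limma 3.58.1 on log2(TPM + 1) and log2(TPM + 0.1), glmTreat against 1 on the log2 scale, a replicate block and leaving out each library.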

Additional observations from a re-analysis of the deposited data

How the results depend on the processing

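The lowest of the 31 genes, Tm7sf2 at 1.08 to 2.52 CPM, lay above the level of 3 counts in every library, and the part of depth and of spread between libraries in the number of calls was not tested. At the study's thresholds the 31 genes gave 0 calls in each direction under every alternative run. At an FDR under 0.05, with 2 higher and 6 lower in the report, limma on log2(TPM + 1) and on log2(TPM + 0.1) gave 0 higher and 1 lower, and library totals only and no filter on low counts left 3 lower. DESeq2 gave 2 and 7. The replicate block gave 1 higher (Scap) and 1 lower (Insig2), and leaving out 1 library gave 1 to 8 higher and 1 to 10 lower. Same-numbered libraries of the genotypes correlated in their deviations at 0.151, -0.06 and 0.05, so the numbers were not taken as a pairing, and not every library correlated best with its own number. Insig2 stayed under 0.05 in 15 of 15 alternatives, Scap in 13, Mvd in 9, Lss and Scd2 in 8, Srebf2 and Fdft1 in 6 and Hsd17b7 in 5. Of the other pathway genes, 3 higher and 5 lower in the report, limma gave 1 higher and 1 lower at both pseudocounts, glmTreat 0 and 1, the replicate block 1 and 3, and leaving out a library 0 to 2 and 1 to 7. Over all genes, 806 higher and 1331 lower became 231 and 704 (limma on log2(TPM + 1)), 361 higher (limma on log2(TPM + 0.1)), 97 and 510 (glmTreat) and 177 to 890 and 523 to 1684 with a library left out. The cause of these differences was not tested, beyond that leaving out a library leaves fewer samples. The log2 fold change of 22 of the 31 genes kept its sign throughout. With a library left out, it ran from -0.12 to 0.46 for Acat2, -0.31 to 0.0099 for Hmgcs1, -0.29 to 0.19 for Pmvk, -0.25 to 0.53 for Idi1, -0.35 to 0.16 for Fdps, -0.17 to 0.46 for Cyp51, -0.48 to 0.0112 for Nsdhl, -0.42 to 0.0432 for Sc5d and -0.18 to 0.065 for Me1. Pmvk was also 0.0172 with library totals only and 0.0202 with the replicate block. The share of Nfya counts in the deleted entry was 27.6% and its share of TPM 33.3%. A CCAAT box preceded by a pair of purines was in promoters of 18 of the 25 genes with a promoter, against 21 for CCAAT alone. The count of genes with a separated transcript share stayed at 6 with a lower share minimum (5%) or a higher level minimum (5 TPM) and was 6 to 8 with a library left out.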
